A study of Mus musculus with 27 samples.

Results

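The RNAs of 9 genes of autophagy and mitochondrial clearance were followed in mouse erythroleukaemia (MEL) cells. These are *Ulk1*, *Map1lc3b*, *Gabarapl1*, *Gabarapl2*, *Atg4a*, *Sqstm1*, *Bnip3l*, *Bnip3* and *Fundc1*. They were picked out of the tables by symbol, with no threshold on a measured value. All 9 were listed in each of the 5 deposited RNA-Seq tables, which together name 20602 genes, and all 9 passed the filter on low counts in every table.

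Autophagy encloses cytoplasm or organelles in a double membrane that then fuses with the lysosome. The ULK1 kinase starts the process, and ubiquitin-like proteins of the ATG8 family (here *Map1lc3b*, *Gabarapl1* and *Gabarapl2*) are attached to the growing membrane. ATG4 proteases such as ATG4A trim and release these proteins, and receptors tie cargo to them. The receptor SQSTM1 (p62) binds ubiquitinated cargo, whereas BNIP3L (NIX), BNIP3 and FUNDC1 sit in the outer mitochondrial membrane. A maturing red cell discards its mitochondria, and BNIP3L is known as the main receptor in this step. *Bnip3* is also a classical target of the hypoxia-inducible factors (HIFs).

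MEL cells are a leukaemic line arrested at an early erythroid stage, and the study used the C88 clone. Lentiviral shRNAs were used for knockdown (KD) of *Cbfa2t3*, which encodes the co-repressor ETO2 (2 libraries with hairpin sh2 and 2 with sh3), of *Irf2bp2* (2 libraries with hairpin sh1) and of *Kdm1a*, which encodes the demethylase LSD1 (2 libraries). *Gfi1b*, a transcriptional repressor, was targeted with siRNA (2 libraries, and the labels do not say which siRNA). Each KD was compared with its own controls, labelled wild type and by the study's methods cells given a non-targeting RNA, with 2 libraries each except for *Kdm1a*, which has 1. In the fifth comparison, 2 libraries of induced MEL cells were set against 2 of non-induced cells. By the figure legends the shRNA KD cells were taken 72 h after transduction and induced cells at 96 h, and no single time is given for the *Gfi1b* siRNA. The labels give no times, and the inducing agent is not given in the sources used here. Since nothing in the labels says that libraries of a group came from separate cultures, the p-values measure the spread between these libraries, although the methods speak of biological replicates.

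The 13 libraries of the shRNA tables held between 44519414 and 57684583 counted reads and the other 8 between 9929311 and 19623105. CPM, the unit used here for a single gene, is its read count relative to library size after TMM scaling. The targeted RNA was lower in every KD library of *Cbfa2t3* (400.3 and 427.2 CPM in controls, 123.1 to 243.5 CPM in the KD), *Irf2bp2* (116.0 and 119.7 against 92.2 and 94.9 CPM) and *Kdm1a* (151.6 against 16.9 and 16.3 CPM). In the *Gfi1b* table the library labelled KD replicate 1 went against its label, with 215.8 CPM of *Gfi1b* against 122.3 and 145.0 CPM in the controls and 76.5 CPM in the library labelled KD replicate 2. Defining erythroid RNAs were present in all 21 libraries (*Gata1* at 347 CPM or more). Myeloid and lymphoid markers were at or near 0 in each of them (at most 0.403 CPM for *Csf1r* and 1.02 CPM for *Cd79a*). Of the megakaryocyte markers *Itga2b* and *Pf4* were present and *Gp9* reached at most 4.7 CPM.

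Called genes are those with an adjusted p of at most 0.05 whose log2 fold change (log2 FC) was at least 0.5 in size. *Ulk1* rose and *Bnip3* fell on induction. *Bnip3* also fell in the *Irf2bp2* and *Kdm1a* KDs, *Map1lc3b* rose in both, and *Atg4a* and *Fundc1* fell in the *Irf2bp2* KD. None of the 9 was called in the *Cbfa2t3* or *Gfi1b* comparison.

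The number called was 4 of 9 in the *Irf2bp2* KD, where 22.5% of 12329 tested genes were called, and 2 of 9 in the *Kdm1a* KD, where 22.5% of 12628 were. On induction 2 of 9 were called, with 27.2% of 11713 genes called. In the *Cbfa2t3* KD the count was 0 of 9 by edgeR's quasi-likelihood test and by DESeq2, and 5.74% of 12537 genes were called. An unadjusted p below 0.05 was reached there by 3 of 9 and by 26.2% of all genes. For *Gfi1b* the number called was 0 of 9 by both tools, with 1 of 9 at an unadjusted p below 0.05, and edgeR called 0 of 11190 genes (784 or 7.01% at an unadjusted p below 0.05, and 59 called by DESeq2). The median log2 FC of the 9 genes was -0.02 in the *Cbfa2t3* KD, -0.19 in the *Irf2bp2* KD, 0.01 in the *Kdm1a* KD, 0.12 in the *Gfi1b* table and 0.41 on induction, while the median over all genes tested lay between -0.02 and 0.02 in each.

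Libraries of the compared groups did not overlap in CPM for 3 of the 9 genes in the *Cbfa2t3* table, all higher in the KD, where the share over all tested genes was 37.8%. The number was 8 of 9 in the *Irf2bp2* table (4 higher and 4 lower, 74.1% of all genes), 7 of 9 in the *Kdm1a* table (3 higher and 4 lower, 88.8%), 2 of 9 in the *Gfi1b* table (39.2%) and 7 of 9 on induction (6 higher and 1 lower, 67.3%). With so few libraries a lack of overlap is common.

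**Figure D1:**
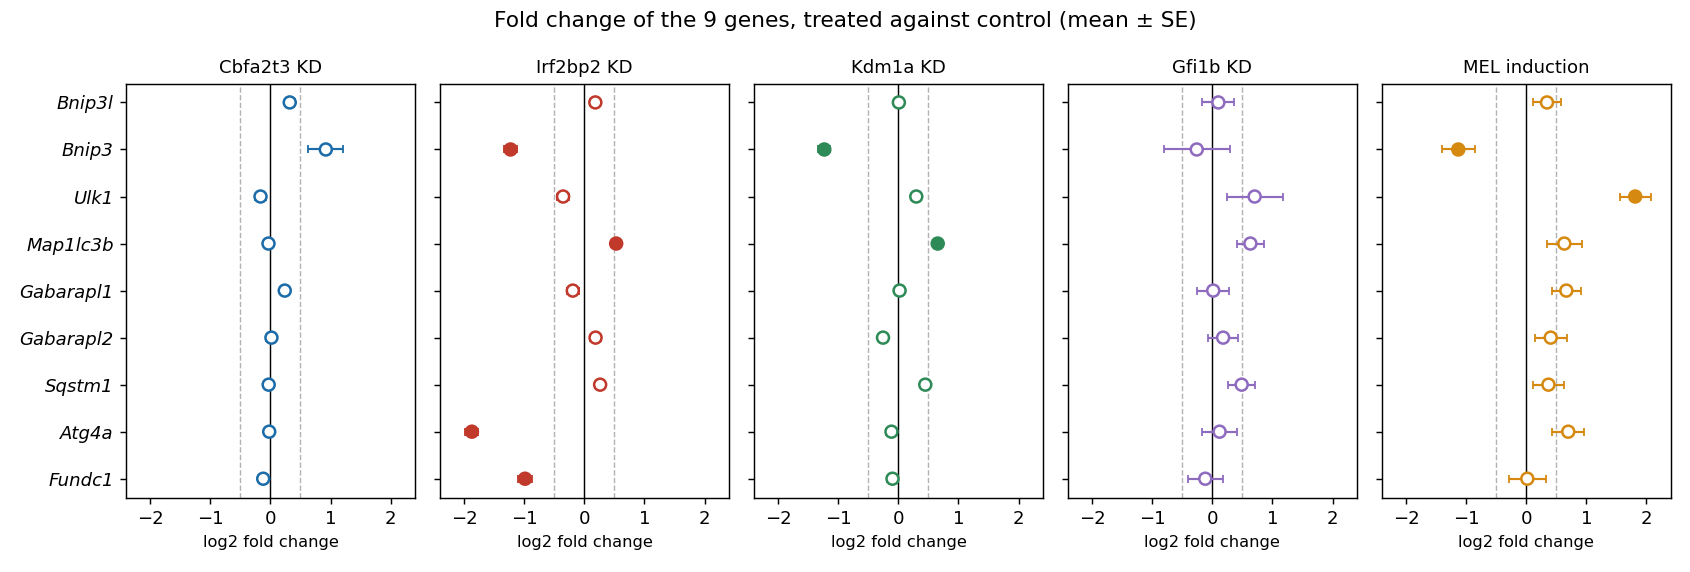
log2 FC of the 9 genes (points) with its standard error (bars) in each of the 5 comparisons, treated against control. Filled points were called, open points were not, and dashed lines mark the limit of 0.5. *Bnip3* lies left of the limit in the *Irf2bp2* KD, the *Kdm1a* KD and induction (-1.23, -1.24 and -1.14) and right of it, uncalled, in the *Cbfa2t3* KD (0.92).

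Levels between genes were compared per transcript length, in the authors' RPKM. The tables were normalized separately, so a level set across them may hold a difference between tables. In the 9 control libraries the medians of *Bnip3l*, 58.0 RPKM (47.6 to 92.5), and *Bnip3*, 56.96 RPKM, were the highest and close together. They were followed by *Sqstm1* with 47.3, *Map1lc3b* with 44.5, *Gabarapl1* with 34.5 and *Gabarapl2* with 34.5. *Atg4a* (11.9 RPKM), *Fundc1* (10.5) and *Ulk1* (7.21) formed the low end. The ranges of *Atg4a* (9.03 to 13.3) and *Fundc1* (8.49 to 12.5) overlap, as do those of neighbours among the higher genes. The lowest control value of *Fundc1* also lies below the highest of *Ulk1* (8.57 RPKM).

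*Bnip3* stood apart in its spread. Its control level ran from 17.8 to 184 RPKM, a 10.3-fold range, whereas the other 8 genes ranged between 1.4-fold (*Ulk1*) and 2-fold (*Sqstm1*) over the same controls. The *Cbfa2t3* controls held 18.5 and 17.8 RPKM of *Bnip3*, the *Irf2bp2* controls 60.6 and 53.5, the *Kdm1a* control 56.96, the *Gfi1b* controls 26.0 and 102.2, and the non-induced cells 184 and 166.4. The controls of different tables thus do not start from the same level of this gene.

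**Figure D2:**
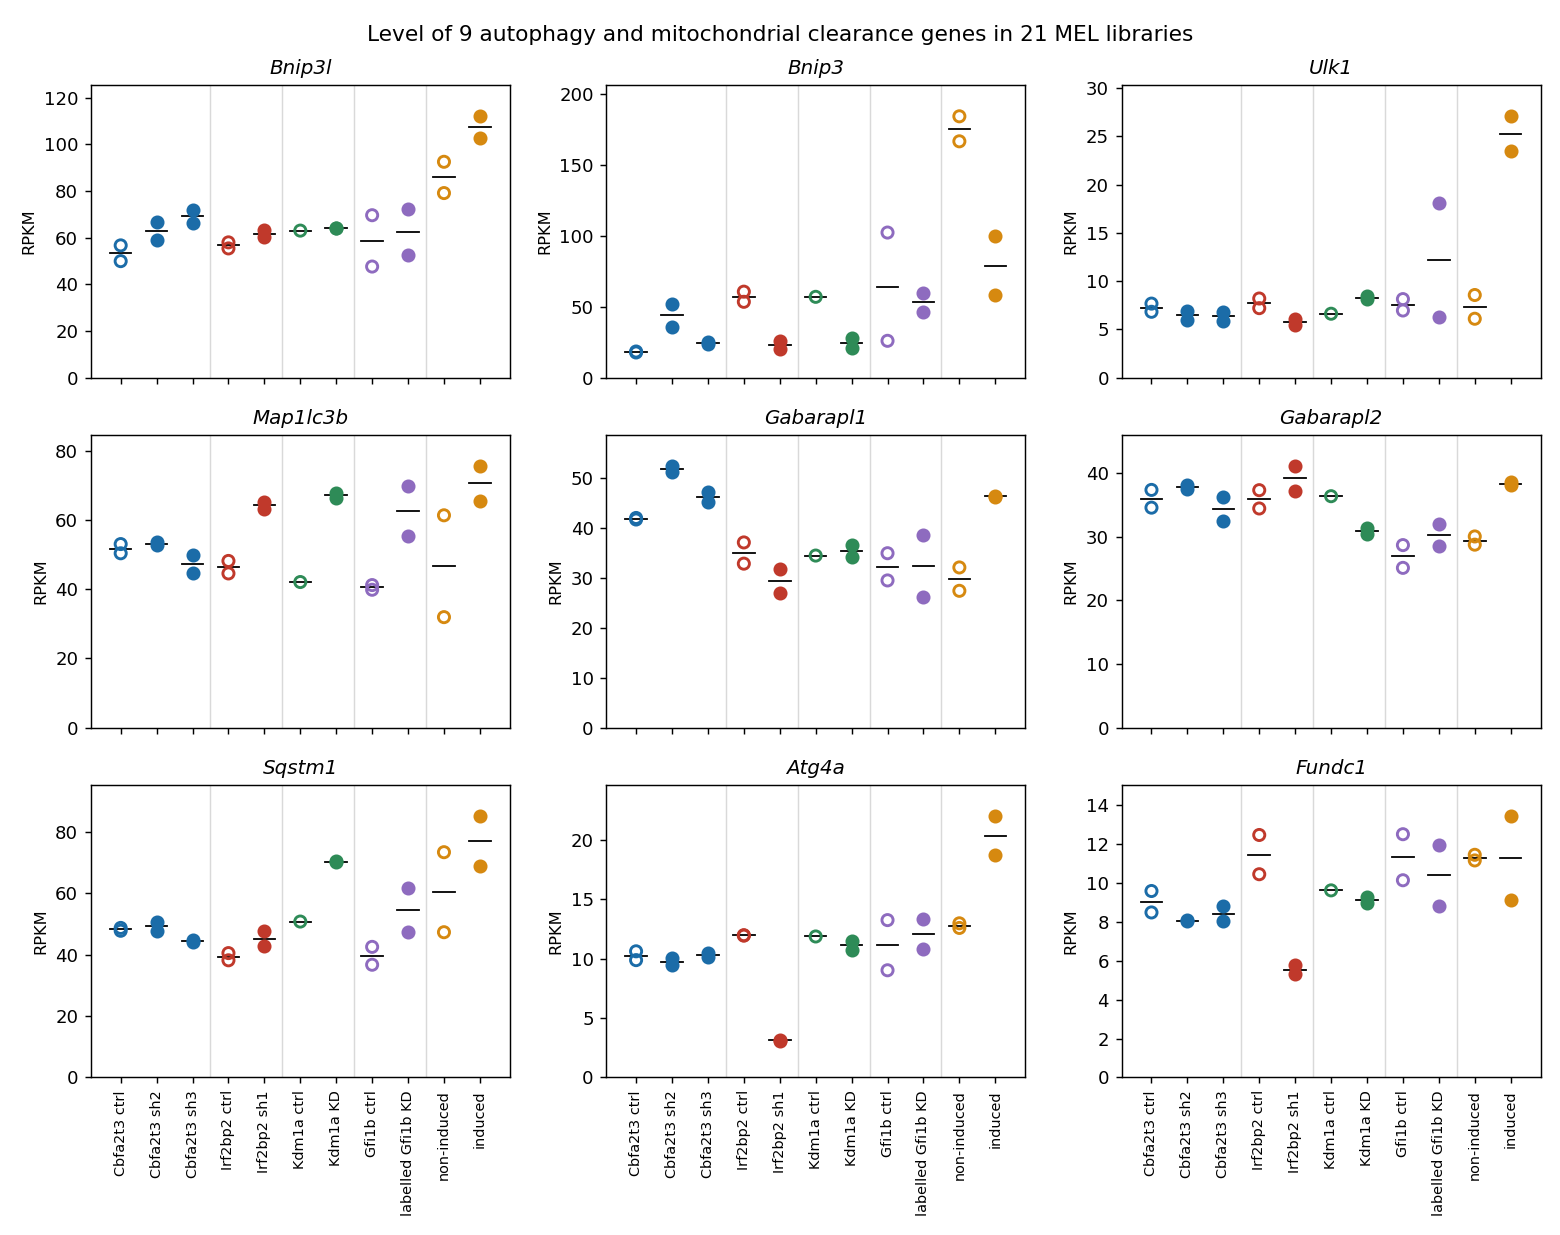
RPKM (authors' values, linear axis from 0) of each gene in 21 libraries, grouped by table. Open circles are controls, filled circles are KD or induced libraries and lines are group means. *Ulk1* stands high in the 2 induced libraries and in the library labelled *Gfi1b* KD replicate 1, *Atg4a* is low in both *Irf2bp2* sh1 libraries (3.09 and 3.18 RPKM), and *Bnip3* controls differ between tables.

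*Ulk1*, the kinase that starts autophagosome formation, was measured at 43.3 and 32.4 CPM in non-induced cells and at 121.0 and 145.2 CPM in induced cells. Both induced libraries lay above both non-induced ones. The rise was 3.51-fold (log2 FC 1.81, standard error 0.26, adjusted p = 0.00034 by the quasi-likelihood test of edgeR, Benjamini-Hochberg adjusted over the genes of the table). *Ulk1* was not called in any KD. It stood at 37.07 and 41.85 CPM in the *Irf2bp2* controls and at 32.2 and 29.5 CPM in the KD (log2 FC -0.36, adjusted p = 0.00517, edgeR). In the *Kdm1a* table the control held 34.7 CPM of it and the KD libraries 43.1 and 42.1 CPM (log2 FC 0.30, adjusted p = 0.00514, edgeR). Both small differences passed the p limit but not the fold limit, and they lie in opposite directions. The *Cbfa2t3* controls (35.3 and 39.7 CPM) and KD libraries (30.9 to 35.8 CPM) overlap.

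In the *Gfi1b* table *Ulk1* stood at 36.2 and 42.0 CPM in the controls, at 94.8 CPM in the library labelled KD replicate 1 and at 32.2 CPM in the library labelled KD replicate 2. Only the first of these lies above the controls. The log2 FC of *Ulk1* was 0.70 with both libraries (adjusted p = 0.739, edgeR), -0.28 without the library labelled KD replicate 1 and 1.26 without the library labelled KD replicate 2. In that last fit *Ulk1*, *Map1lc3b* and *Sqstm1* were called higher, with 3148 genes called in all. It rests on 1 library whose *Gfi1b* level goes against its label and which is assumed to vary like the controls, so it does not measure a response to the KD. The same library held 923.5 CPM of *Alas2*, an enzyme of haem synthesis, against 8.36 to 20.4 CPM in the other 3 of that table.

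The summed level of the 7 listed erythroid markers was higher on induction, as *Ulk1* was, and went from 1880 and 1940 CPM to 4170 and 4720 CPM. Of the 7, *Tfrc*, the transferrin receptor, had a log2 FC of -0.57 on induction (adjusted p = 0.223, edgeR), while the other 6 were called higher. The 3 megakaryocyte markers summed to 375 to 517 CPM before and 1160 to 1290 CPM after induction, and the 3 progenitor markers to 338 to 354 CPM before and 50.8 to 126 CPM after. In the *Irf2bp2* KD the erythroid sum was 1230 to 1320 CPM in controls and 3390 to 3640 CPM in the KD, and *Ulk1* was not higher there. The megakaryocyte sum was 364 to 416 CPM in those controls and 775 to 806 CPM in the KD. The progenitor sum was 379 to 404 CPM and 288 to 301 CPM. Of its 3 markers 2 were called lower there, while *Spi1* was called higher (log2 FC 0.57, adjusted p = 2.92e-05, edgeR). The part of these shifts in the values of *Ulk1* and the other genes was not tested, and in bulk RNA a change in the number of cells of one kind and a change in RNA per cell cannot be told apart.

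*Map1lc3b*, which encodes LC3B, rose in 2 KDs. It was measured at 75.4 and 80.9 CPM in the *Irf2bp2* controls and at 113.4 and 112.0 CPM in the KD. This was a 1.44-fold rise (log2 FC 0.53, standard error 0.08, adjusted p = 5.35e-05, edgeR), just past the limit, and without control replicate 1 it fell short at 0.48. In the *Kdm1a* table the control held 72.4 CPM and the KD libraries 112.0 and 115.9 CPM, a 1.57-fold rise (log2 FC 0.65, standard error 0.08, adjusted p = 3.96e-07, edgeR). The single *Kdm1a* control is assumed in this test to vary like the KD libraries. In both tables the KD libraries lay above the controls.

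On induction *Map1lc3b* went from 102.0 and 55.7 CPM to 111.2 and 133.4 CPM (log2 FC 0.63, adjusted p = 0.119, edgeR). The non-induced libraries differ from each other by more than the nearest pair of the 2 groups, and without non-induced replicate 1 the gene was called (log2 FC 1.122, adjusted p = 0.0374), whereas without non-induced replicate 2 the log2 FC was 0.26. The lone non-induced library is assumed in both fits to vary like the induced ones. The *Gfi1b* controls held 68.1 and 69.9 CPM and the libraries labelled KD 120.2 and 93.7 CPM (log2 FC 0.63, adjusted p = 0.69, edgeR). It was at 85.6 to 90.2 CPM in the *Cbfa2t3* controls and at 76.4 to 91.9 CPM in that KD, where the groups overlap.

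*Gabarapl1* and *Gabarapl2*, the other ATG8 genes among the 9, were not called in any comparison. *Gabarapl1* stood at 53.8 and 48.2 CPM in non-induced and at 79.0 and 82.8 CPM in induced cells. The groups do not overlap, and the log2 FC of 0.67 missed the p limit (adjusted p = 0.0525, edgeR) but passed it with DESeq2 (adjusted p = 0.037). In the *Cbfa2t3* KD all 4 libraries (78.3 to 90.4 CPM) lay above the controls (71.52 and 71.97 CPM), with a log2 FC of 0.24 (adjusted p = 0.0725, edgeR). *Gabarapl2* (GATE-16) kept within 24.6 to 41.7 CPM over all 21 libraries. The *Kdm1a* control held 35.9 CPM of it and the KD libraries 29.4 and 30.7 CPM (log2 FC -0.26, adjusted p = 0.0154, edgeR), past the p limit only. In the *Irf2bp2* table its controls held 36.2 and 33.1 CPM and its KD libraries 37.1 and 41.7 CPM (log2 FC 0.19, adjusted p = 0.112, edgeR).

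*Atg4a*, one of the 4 proteases that process ATG8 proteins, showed the largest change of the 9 genes in any comparison. It was measured at 25.9 and 25.8 CPM in the *Irf2bp2* controls and at 6.87 and 7.21 CPM in the KD. The KD libraries lie far below the controls, and the fall was 3.67-fold (log2 FC -1.88, standard error 0.11, adjusted p = 5.41e-10, edgeR). The *Irf2bp2* KD was made with a single hairpin, so that an effect of that hairpin and one of the loss of IRF2BP2 cannot be told apart. The RNA of *Irf2bp2* itself had a log2 FC of -0.33 in this KD, and these data do not measure its protein. How the changes of these RNAs relate was not tested.

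*Atg4a* was not called in another KD. It was between 20.7 and 23.2 CPM in all 6 libraries of the *Cbfa2t3* table (log2 FC -0.02, standard error 0.08) and between 23.2 and 26.2 CPM in the *Kdm1a* table (log2 FC -0.12, standard error 0.09). The response in the *Irf2bp2* KD differed from that in the *Cbfa2t3* KD by a log2 of -1.86 (standard error 0.23, adjusted p = 0.000596, edgeR, contrast over 14176 genes of which 1.35% differed). By edgeR it was the only one of the 9 genes to pass this test, while DESeq2 also passed *Bnip3* and *Fundc1*. On induction *Atg4a* went from 26.9 and 29.0 CPM to 40.7 and 49.9 CPM (log2 FC 0.70, adjusted p = 0.068, edgeR), with no overlap of the groups.

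*Fundc1* fell in the same KD, from 24.1 and 20.0 CPM to 11.5 and 10.7 CPM. It was 1.99-fold lower (log2 FC -0.99, standard error 0.11, adjusted p = 2.44e-06, edgeR), and both KD libraries lay below both controls. In the other tables *Fundc1* stayed between 15.7 and 26.0 CPM, with an absolute log2 FC of 0.12 or less. Its response in the *Irf2bp2* KD minus that in the *Cbfa2t3* KD was -0.87 (standard error 0.25, adjusted p = 0.121, edgeR). *Fundc1* and *Atg4a* are the 2 of the 9 genes on the X chromosome. The 345 tested X-linked genes had a median log2 FC of -0.14 in the *Irf2bp2* KD and 18.3% of them were called lower, against -0.001 and 12.3% of autosomal genes. The part of this shift in the 2 values was not tested.

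*Sqstm1*, the receptor p62, was called in none of the 5 comparisons. In the *Kdm1a* table the control held 103.6 CPM and the KD libraries 140.0 and 142.6 CPM (log2 FC 0.45, standard error 0.08, adjusted p = 4.34e-05, edgeR), past the p limit and under the fold limit. The *Gfi1b* controls held 73.7 and 84.2 CPM and the libraries labelled KD 126.3 and 94.7 CPM (log2 FC 0.49, adjusted p = 0.704, edgeR). In the *Irf2bp2* table it was at 76.6 and 80.6 CPM in controls and at 88.3 and 100.0 CPM in the KD (log2 FC 0.26, adjusted p = 0.0201, edgeR). The *Cbfa2t3* values were between 90.0 and 102.6 CPM in all 6 libraries. The induced libraries (136.8 and 176.1 CPM) overlap the non-induced ones (144.6 and 97.8 CPM).

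*Bnip3l*, the mitochondrial receptor of red cell maturation, was not called in any comparison. *Bnip3* was above it in RPKM in 4 of the 9 control libraries, both non-induced ones included (184.0 and 166.4 against 79.1 and 92.5 RPKM). *Bnip3l* was measured at 248.9 and 305.3 CPM in non-induced and at 328.5 and 374.2 CPM in induced cells. Both induced libraries lay above both non-induced ones, and the log2 FC of 0.34 (standard error 0.24) did not pass the test (adjusted p = 0.306, edgeR). In the *Cbfa2t3* table the controls held 182.5 and 160.7 CPM, the sh2 libraries 216.7 and 191.5 CPM and the sh3 libraries 233.7 and 215.5 CPM. All 4 KD libraries lay above both controls, and the 1.25-fold difference (log2 FC 0.32, standard error 0.09) passed the p limit only (adjusted p = 0.0468, edgeR).

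The *Irf2bp2* KD was alike in direction, with 185.7 and 176.0 CPM of *Bnip3l* in controls and 197.9 and 212.2 CPM in the KD (log2 FC 0.18, adjusted p = 0.0867, edgeR). In the *Kdm1a* table the 3 libraries lay between 204.9 and 207.8 CPM (log2 FC 0.01, standard error 0.08). The *Gfi1b* controls (154.2 and 223.7 CPM) overlap the libraries labelled KD (235.6 and 168.8 CPM).

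Sites of ETO2 were assigned to 1 of the 9 genes, *Bnip3l*, while 20.4% of the 10779 tested genes that could be placed have one. In the authors' list of ETO2 and IRF2BP2 sites in non-induced cells, the IRF2BP2 sites rest on 1 library and the ETO2 data come from an earlier study. Of the 9 genes 3 were the nearest gene of at least 1 site, against 45.1% of those tested genes, so that these counts are not a result about the 9. *Bnip3l* lies at chr14:67604076-67627714 on the minus strand of mm9. Its ETO2-only site is in an intron and was 18.5-fold enriched over IgG. Its IRF2BP2-only site at chr14:67627013-67628210 has its centre 202 bp upstream of the transcription start site (TSS) and was 9-fold enriched. *Ulk1* (chr5:111213507-111239116, minus strand) has an IRF2BP2-only site in an intron at chr5:111236754-111237838, 1862 bp downstream of the TSS, and *Gabarapl2* (chr8:114464603-114477512, plus strand) has one at chr8:114464032-114464827, 206 bp upstream. These were 5.25-fold and 4.67-fold enriched.

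The 300 bases around the centres of 2 of these sites are shown from the plus strand of mm9, since they are the assigned IRF2BP2 sites that hold a motif of the ETS factors. Capitals mark an ETS core (AGGAAA or its variant AGGAAG, and CGGAAA or its variant CGGAAG, on either strand), and the matches in *Ulk1* overlap in 1 run of capitals.
Bnip3l IRF2BP2-only site, chr14:67627766-67628065: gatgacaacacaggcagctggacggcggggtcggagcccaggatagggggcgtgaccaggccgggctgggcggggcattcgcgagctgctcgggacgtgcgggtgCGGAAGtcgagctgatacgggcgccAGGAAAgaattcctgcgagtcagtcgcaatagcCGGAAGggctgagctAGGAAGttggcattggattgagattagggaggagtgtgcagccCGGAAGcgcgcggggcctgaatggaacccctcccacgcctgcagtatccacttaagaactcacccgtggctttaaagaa
Ulk1 IRF2BP2-only site, chr5:111237104-111237403: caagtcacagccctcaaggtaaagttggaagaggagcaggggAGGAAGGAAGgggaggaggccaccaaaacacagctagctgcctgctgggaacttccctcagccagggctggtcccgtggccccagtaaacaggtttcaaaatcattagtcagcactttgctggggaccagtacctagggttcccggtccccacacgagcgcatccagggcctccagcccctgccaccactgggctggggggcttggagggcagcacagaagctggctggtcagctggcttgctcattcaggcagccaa

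The IRF2BP2-only windows of *Bnip3l* and *Ulk1* hold 5 and 2 ETS matches and no match to the GATA motif (AGATAA or its variant AGATAG, and TGATAA or its variant TGATAG, on either strand). Over all 8739 IRF2BP2-only windows, 73.3% hold the ETS core and 52.4% the GATA motif. A match is a pattern of letters and not a measured site of a factor. Within 50 kb of the TSS, but nearer to another gene, *Ulk1* also has an ETO2-only site (26025 bp upstream), *Map1lc3b* an IRF2BP2-only site (9785 bp upstream) and *Sqstm1* a shared site (14155 bp upstream) and an IRF2BP2-only site (30803 bp upstream). *Bnip3*, *Atg4a*, *Fundc1* and *Gabarapl1* have no listed site within that distance.

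*Bnip3*, the hypoxia-responsive relative of *Bnip3l*, was lower in 3 comparisons. It was measured at 105.3 and 92.1 CPM in the *Irf2bp2* controls and at 36.6 and 47.4 CPM in the KD, a 2.35-fold fall (log2 FC -1.23, standard error 0.11, adjusted p = 1.16e-07, edgeR). In the *Kdm1a* table the control held 100.6 CPM and the KD libraries 48.6 and 36.7 CPM, also a 2.35-fold fall (log2 FC -1.24, standard error 0.10, adjusted p = 1.41e-09, edgeR). On induction *Bnip3* fell from 314.0 and 297.8 CPM to 173.6 and 104.9 CPM, 2.2-fold (log2 FC -1.14, standard error 0.27, adjusted p = 0.00797, edgeR). In each of the 3 tables the treated libraries lay below the controls, but the *Kdm1a* table has 1 control. That library is assumed in the test to vary like the KD libraries, while the 2 *Gfi1b* controls held 45.7 and 178.2 CPM of *Bnip3*. Without induced replicate 2 the fall on induction was not called (log2 FC -0.81, adjusted p = 0.121).

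In the *Cbfa2t3* KD the difference had the other sign but was not called. *Bnip3* stood at 32.3 and 31.1 CPM in its controls, at 91.3 and 62.9 CPM with sh2 and at 44.4 and 41.4 CPM with sh3. All 4 KD libraries lay above the controls, but the hairpins differed and the log2 FC of 0.92 (standard error 0.29) was not called (adjusted p = 0.0786, edgeR). With sh2 alone the log2 FC was 1.28 (adjusted p = 4.35e-05), and with sh3 alone it was 0.44 (adjusted p = 0.000355), past the p limit only. In the fit of both hairpins, leaving out sh2 replicate 1 (0.65, adjusted p = 0.0492) or sh3 replicate 2 (1.06, adjusted p = 0.0328) brought it past the limits, and leaving out any other library did not. The response to the *Irf2bp2* KD minus that to the *Cbfa2t3* KD was -2.09 (standard error 0.55, adjusted p = 0.0769, edgeR), and for the *Kdm1a* KD it was -2.09 (standard error 0.60, adjusted p = 0.0534), where 5.5% of 14176 genes differed. Both differences missed the p limit here and passed by DESeq2, and that for *Kdm1a* also passed in edgeR with the size factors of DESeq2 or with at least 10 counts in every library. For the *Gfi1b* KD it was -1.12 (standard error 0.54, adjusted p = 0.264, edgeR), where 2.6% of genes differed.

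In the *Gfi1b* table the 2 controls of *Bnip3* differed from each other, at 45.7 and 178.2 CPM. The libraries labelled KD (105.6 and 80.8 CPM) lay between them. The log2 FC was -0.26 with all libraries, 1.02 without control replicate 2 and -0.94 without control replicate 1, so that 1 control library decided its direction. All 8 genes of a list of HIF targets (*Ddit4*, *Vegfa*, *Egln3*, *Egln1*, *Pdk1*, *Ankrd37*, *P4ha1* and *Slc2a1*) were likewise higher in control replicate 2, with a median ratio of 2.38.

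The HIF targets were followed with *Bnip3* through the other tables. In the *Kdm1a* KD 7 of 8 were called lower (median log2 FC -1.001, 10.1% of all genes lower), with *Slc2a1*, the glucose transporter GLUT1, at -2.18 and *Ankrd37* at -2.18. These calls rest on 1 control library, while the 2 *Gfi1b* controls differed from each other by a median ratio of 2.38 in these genes. In the *Irf2bp2* KD 5 of 8 were called lower (median -0.64, 12.5% of all genes), among them *Slc2a1* at -0.95 and *P4ha1*, a collagen prolyl hydroxylase, at -0.87. The uncalled *Egln3* and *Egln1* stood at 0.03 and 0.05. On induction 3 of 8 were called lower (median -0.60, 14.8% of all genes). The lowest was *Ankrd37* at -2.90, while the uncalled *Vegfa* stood at 0.64 (adjusted p = 0.102, edgeR). In the *Cbfa2t3* KD 2 of 8 were called higher (median 0.39, 2.99% of all genes). These were *Egln3*, a prolyl hydroxylase that acts on HIFs, at 1.05 and *Slc2a1* at 0.55, while the uncalled *Ddit4* stood at -0.25. Without non-induced replicate 1 the count on induction was 1 of 8, and in the *Cbfa2t3* KD it was 1 of 8 when either control or either sh2 library was left out, 4 of 8 with sh2 alone and 2 of 8 with sh3 alone. In the same *Cbfa2t3* KD the 7 erythroid markers summed to 1500 to 1510 CPM in controls and to 2100 to 2490 CPM in the KD (5 called higher) and the 3 megakaryocyte markers to 399 to 412 and 473 to 586 CPM (1 called higher), and the part of these shifts was not tested. The genes called in all were 279 and 360 without a control, 699 and 797 without an sh2 library, 882 with sh2 alone and 1145 with sh3 alone, against 720.

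Across the 21 libraries, with the mean of each table taken out, the log2 CPM of *Bnip3* correlated with each of the 8 HIF targets, with Pearson's r from 0.48 to 0.88 and a median of 0.81. For *Bnip3l* the median r was -0.02 (-0.37 to 0.54), and for the remaining 7 genes it lay between -0.35 (*Map1lc3b*) and 0.18 (*Fundc1*). Among 11053 genes the 5 most like *Bnip3* were *P4ha2* (0.93), *3110057O12Rik* (0.91), *Ndufa4l2* (0.89), *Pdk1* (0.88) and *Ankrd37* (0.88). Those most like *Bnip3l* were *Rgs10* (0.89), *Chgb* (0.88), *Tmem60* (0.88), *Tgm2* (0.87) and *Il1b* (0.85). Libraries of a table share their controls and handling, so these values are a description. *Bnip3* and *Bnip3l* themselves had an r of 0.10.

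**Figure D3:**
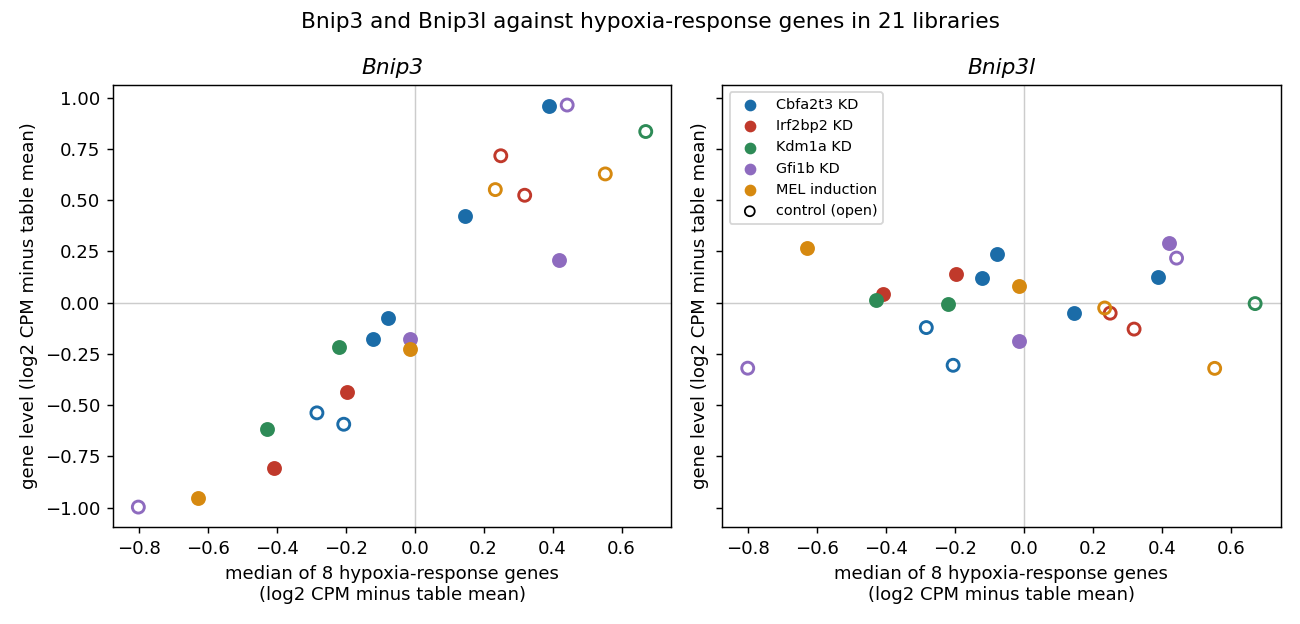
Level of *Bnip3* (left) and *Bnip3l* (right) against the median of 8 HIF targets in 21 libraries, both in log2 CPM minus the mean of the table. Open circles are controls, filled circles are KD or induced libraries, and colours are tables. The points of *Bnip3* run along a diagonal, those of *Bnip3l* do not, and the 2 *Gfi1b* controls lie at opposite ends on the left.

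Since *Bnip3* moved with genes of the hypoxia response, the 250 bases before its RefSeq start are shown. The sequence comes from the RefSeq promoter table (GRCm38.p6) and matched mm9 exactly once, at chr7:146101190-146101439 on the minus strand. It is written along the gene, and capitals mark the core of the hypoxia response element (ACGTG or GCGTG on either strand).
Bnip3 promoter: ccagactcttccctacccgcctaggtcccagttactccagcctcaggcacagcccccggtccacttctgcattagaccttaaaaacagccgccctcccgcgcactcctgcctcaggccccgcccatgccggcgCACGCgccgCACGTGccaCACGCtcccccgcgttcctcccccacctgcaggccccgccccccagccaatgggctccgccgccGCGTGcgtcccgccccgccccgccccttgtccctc

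It holds 5 matches, of which 2 are the overlapping pair on the 2 strands of CACGTG. Of 32851 RefSeq promoters in the table, 38.6% hold at least 1 match and 1.01% hold 5 or more. *Map1lc3b* also has 5 matches in this window, and its median r with the HIF targets was -0.35. The table has no entry for *Bnip3l*.

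The wider pathway was taken from lists of 58 further genes, all of which passed the filter in every table and 1 of which, *Ddit4*, is also among the HIF targets. In the *Kdm1a* KD 16 of the 58 were called higher and 3 lower (12.4% and 10.1% of all genes). Of the lysosome list, 10 of 11 were called higher there with a median log2 FC of 0.72, against a median of 0.004 over all genes. These calls too rest on 1 control library, which no alternative can leave out. Among the leading genes were *Lamp1*, a lysosomal membrane glycoprotein (1.39, adjusted p = 9.89e-12), *Ctsb*, the protease cathepsin B (1.10, adjusted p = 2.18e-10), and *Mcoln1*, a lysosomal calcium channel (0.96, adjusted p = 9.74e-08, all edgeR). In the same libraries the 7 erythroid markers summed to 1580 CPM in the control and to 1100 and 1110 CPM in the KD. Their median log2 FC was -0.45, with *Alas2* at 0.07, and *Tfrc* alone went from 458.1 CPM to a mean of 275.8 CPM. The 3 progenitor markers (*Kit*, *Spi1* and *Myb*) summed to 424 CPM in the control and to 582 and 585 CPM in the KD. The part of these shifts in the lysosome and HIF target values was not tested. The ATG8 gene *Gabarap* rose with *Map1lc3b* (0.88). The genes called lower were *Atg13* (-0.77) and *Ulk2* (-0.56), of the ULK1 complex and its paralogue, and *Atg4d* (-0.50).

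In the *Irf2bp2* KD 6 of the 58 genes were called higher and 4 lower (10.1% and 12.5% of all genes). *Map1lc3a*, which encodes the LC3 paralogue LC3A, rose by a log2 of 0.95, and *Atg4d*, another protease of the family of *Atg4a*, by 0.78, opposite in direction to *Atg4a*. *Ctsd*, which encodes cathepsin D, rose by 0.70 and *Atg16l1*, of the complex that attaches ATG8 proteins, by 0.66. *Sesn2* (-0.94) and *Ddit4* (-0.71), both inhibitors of mTORC1 signalling, fell, as did *Lamp2*, a lysosomal membrane protein (-0.68). *Lamp2* was thus lower in this KD and higher in the *Kdm1a* KD (0.92), a difference that was not tested.

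On induction 10 of the 58 were called higher and 1 lower (12.4% and 14.8% of all genes). Of the 5 genes of the ULK list 3 were called higher, which are *Ulk1* itself, *Ulk2* at 0.97 and *Rb1cc1* at 0.86. *Wipi1*, a phosphoinositide-binding protein of the forming membrane, rose by 1.41, *Map1lc3a* by 1.25, *Atg12* by 1.13 and *Foxo3*, a transcription factor of autophagy genes, by 1.09. *Phb2*, a mitochondrial inner membrane receptor, was called lower (-1.05). None of the 11 lysosome genes was called there by edgeR. Of the 58 genes 11 were called with all libraries, 3 without non-induced replicate 2 and 2 without induced replicate 2. The genes called in all were 3187, 1522 and 1772.

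In the *Cbfa2t3* KD 3 of the 58 were called higher and 1 lower (2.99% and 2.75% of all genes). These were *Park2*, the ubiquitin ligase parkin (1.00), *Wipi1* (0.81), *Foxo3* (0.54) and *Ctsl*, which encodes cathepsin L (-1.23). Without control replicate 1 the count was 2. For *Gfi1b* none of the 58 was called by edgeR, whereas 24 were called without the library labelled KD replicate 2 and 2 without the library labelled KD replicate 1, where 3148 and 396 genes were called in all and 1 labelled library stood against the controls.

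**Figure D4:**
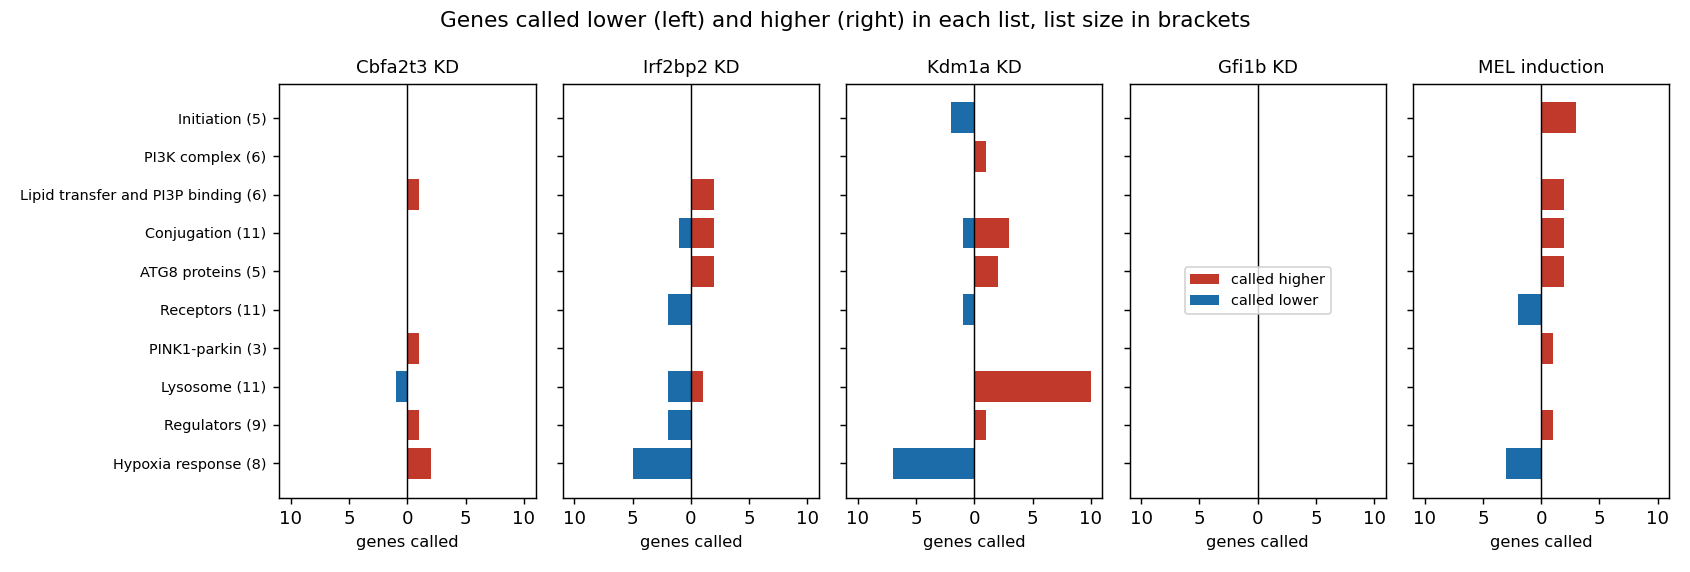
Number of genes called lower (bars to the left) and higher (bars to the right) in 9 pathway lists and the list of HIF targets (hypoxia response), for each comparison. List sizes stand in brackets and include the 9 genes. The longest bars are the 10 lysosome genes higher and the 7 HIF targets lower in the *Kdm1a* KD, and the *Gfi1b* panel has none.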

How the data were processed

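Of 27 samples, the 21 RNA-Seq libraries of MEL cells and the combined binding site list were used. The authors mapped reads with TopHat2 to mm9, counted them per RefSeq gene with rpkmforgenes and deposited raw counts and RPKM per library, with their DESeq2 log2 fold changes and p-values, which are not used. Whether strand was used in counting is not given in the sources used here. The deposited fold enrichment of a site is a ratio of ChIP to IgG reads, and the class code of a site (another deposited column) was read as ETO2-only, shared or IRF2BP2-only from the class sizes. Another 4 read-number columns of that list are not used.

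Counts were tested in R 4.3.3 with edgeR 4.0.16 (TMM, filterByExpr, glmQLFit and glmQLFTest, Benjamini-Hochberg adjustment over the genes of a table). Responses of 2 KDs were compared in 1 fit of all 21 libraries. The alternatives were DESeq2 1.42.0, its size factors, other filters, no fold limit, the replicate number as a block, single hairpins and leaving out each library. Running them on the counts of HIF targets, lysosome and other pathway genes was chosen after seeing the data. A floor of 3 counts is 0.052 to 0.302 CPM. In a test on simulated counts, where 200 genes were given a log2 change of 1, edgeR recovered 176 for *Cbfa2t3*, 184 for *Irf2bp2*, 175 for *Kdm1a*, 17 for *Gfi1b* and 49 for induction. Genes called there without a given change numbered 11, 1, 2, 4 and 8, in the same order. Sites went to the nearest of 22380 GENCODE coding genes within 1 Mb, taking the 5′ end of a gene as its TSS, and site windows came from the mm9 genome. RefSeq promoters matched 8 of the 9 genes.

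The named genes are the 9 genes, each KD target, the 4 largest rises and 4 largest falls among called pathway genes whose groups do not overlap, and the 5 genes most like *Bnip3* and *Bnip3l*. *Gabarap*, *Ulk2* and *Rb1cc1* on induction, *Lamp2* in the *Kdm1a* KD and single HIF targets were added after their values were seen. The 9 genes and all lists were chosen with earlier results of these data known. One pathway gene named by this rule is not reported here, and not every site sequence is printed.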

Additional observations from a re-analysis of the deposited data

Results flagged for a closer look

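The response of *Atg4a* differed between the *Irf2bp2* and *Cbfa2t3* KDs by a log2 of -1.86 (standard error 0.23, adjusted p = 0.000596 from the edgeR contrast), and it was lower in 2 of 2 *Irf2bp2* KD libraries. In the *Irf2bp2* and *Kdm1a* KDs all libraries moved opposite ways for *Ulk1*, where the *Kdm1a* log2 FC was higher by 0.65, and for *Gabarapl2*, where it was lower by 0.44. These last differences were not tested. Groups did not overlap in CPM for 74.1% of all genes in the *Irf2bp2* table and 88.8% in the *Kdm1a* table, which has 1 control. Among the 4 *Cbfa2t3* KD libraries sh3 replicate 2 stood apart for *Fundc1*, with 17.2 CPM against 15.7 to 15.8 CPM, a gap of 0.953 of the range. Chance sets about 1 in 20 groups of like replicates apart in this way, whereas these 4 libraries pool the hairpins sh2 and sh3.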

How the results depend on the processing

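Of 414 alternative log2 FC of the 9 genes, 374 kept their direction and, where tested, their side of the limits, 27 reversed, 11 became called and 2 lost the call. The calls of *Bnip3*, *Atg4a* and *Fundc1* in the *Irf2bp2* KD, and of *Ulk1* on induction stood under every alternative run. Those of *Bnip3* and *Map1lc3b* in the *Kdm1a* KD stood under each that allowed a test, and leaving out a KD library there leaves only a fold (-1.452 to -1.049 and 0.63 to 0.679). In the *Cbfa2t3* KD 1 of the 9 genes was called without a filter (*Bnip3*), without a fold limit (*Bnip3l*) and with sh2 alone (*Bnip3*). Genes called there were 720, 1423 without a fold limit, 1145 with sh3 alone, 360 without control replicate 2, 279 without control replicate 1, and 279 to 797 with each library left out in turn (0 to 1 of the 9 genes). With sh2 alone *Map1lc3b* was at 0.047 and *Sqstm1* at 0.036, with sh3 alone *Gabarapl2* was at -0.056 and *Atg4a* at 0.019, and leaving out libraries gave *Map1lc3b* -0.071 to 0.016, *Gabarapl2* -0.04 to 0.07 and *Atg4a* -0.073 to 0.029. Without a fold limit 5810 genes were called in the *Irf2bp2* KD, and 6121 with 5 of the 9 in the *Kdm1a* KD, where *Bnip3l* was at -0.006 without a filter.

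In the *Gfi1b* table DESeq2 called 59 genes, edgeR without a filter 411, and leaving out libraries gave 0 to 3148 genes and 0 to 3 of the 9 (396 genes without the library labelled KD replicate 1, 3148 without the library labelled KD replicate 2). The ranges there were -0.163 to 0.377 for *Bnip3l*, -0.942 to 1.015 for *Bnip3*, -0.28 to 1.26 for *Ulk1*, -0.311 to 0.251 for *Gabarapl1*, -0.148 to 0.424 for *Atg4a* and -0.381 to 0.073 for *Fundc1*. On induction leaving out libraries gave 1522 to 3369 genes (1626 without non-induced replicate 1, 1522 without non-induced replicate 2 and 1772 without induced replicate 2, against 3187), 1 to 3 of the 9 and -0.266 to 0.256 for *Fundc1*. In the contrasts with the *Cbfa2t3* KD, DESeq2 passed 3 of the 9 genes for *Irf2bp2*, and for *Kdm1a* 1 passed (*Bnip3*) with DESeq2, with its size factors and with at least 10 counts per library. For *Gfi1b* it was 0 to 3. With sites at or above the median enrichment of their class, 1 of the 9 genes kept a site.

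Equal replicate numbers in the labels do not say that libraries were paired, and the deviations of same-numbered libraries correlated at 0.002 (*Gfi1b*) to 0.252 (*Cbfa2t3*). With the replicate number as a block 4 of the 9 genes were called on induction (*Gabarapl1* and *Atg4a* were added) and *Fundc1* was at -0.003, while in the *Gfi1b* table *Bnip3* was at 0.031 and *Gabarapl1* at -0.01. The cause of these shifts was not tested. The *Gfi1b* and induction libraries are the shallowest.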
